A study of Mus musculus with 12 samples.

Results

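Of 19938 mouse genes measured in endometrium, 72 (0.361%) were lowered 8 h after mating with intact males but were level between unmated females and females mated with vasectomised males. The members were selected on the deposited values themselves. A gene was taken where its highest value among the 4 intact arrays lay below the lowest of the 8 control and vasectomised arrays, where the vasectomised and control means differed by at most 0.25 on the log2 scale, and where the intact mean was at least 0.40 below each of the others. Because these values on all 12 arrays chose the members, their levels and differences are given as a description, and no test of a member is used.

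The females were CBAF1 mice, the offspring of CBA and C57Bl/6 parents, aged 9 to 16 weeks. The Intact group was mated with BALB/c males aged 12 to 28 weeks, and the Vasectomised group with BALB/c males of the same age range whose vas deferens had been tied at 6 to 8 weeks of age. The Control group was labelled as virgin estrus females, whereas the methods give its collection as the pro-estrus day at 2000 h, so the hour of collection and the cycle stage cannot be told apart from mating in any comparison with controls. Each array held RNA pooled from 4 females, and 16 females contributed to each group. Intact males deliver sperm with seminal plasma. After vasectomy the male contributes neither sperm nor any fluid made upstream of the tie, and the absence of the one cannot be told apart from the absence of the other. The RNA came from the scraped endometrial layer, a mixture of luminal and glandular epithelium, stroma, vessels and leukocytes, in which fewer cells of a type and less RNA per cell cannot be told apart.

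Endometrium is the lining of the uterus. Its epithelium moves ions and water into and out of the lumen, and in rodents sperm and seminal plasma both reach the uterine cavity at mating. Among the members are genes of pathways that are well known elsewhere. Pyruvate dehydrogenase kinases, fatty acid uptake by CD36 and the glucose-responsive protein TXNIP take part in the choice between glucose and fat as fuel. Volume-regulated anion channels, organic osmolyte carriers and WNK kinases control cell volume and salt transport. LIF signals through a receptor that contains LIFR and is required in the mouse uterus for embryo implantation, and Notch ligands such as DLL4 act between neighbouring cells through HES and HEY repressors.

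The median difference of the 72 members was -0.60 between the intact and control groups and -0.56 between the intact and vasectomised groups on the log2 scale, against 0.01 and 0.02 over all genes. The differences ranged from -1.19 to -0.40 against control and from -1.08 to -0.40 against the vasectomised group. The vasectomised group differed from control by a median of -0.05 over the members, with a range of -0.25 to 0.22, the vasectomised mean being the higher one for 24 members and the lower one for 48. Intact means were at least 1.5-fold below both other groups for 26 members and at least 2-fold below both for 3, 1700086L19Rik, Aif1l and Pdk4. The gap between the highest intact array and the lowest of the other 8 arrays had a median of 0.19 and ran from 0.01 to 0.51. Spread between replicate pools was largest in controls, where the median SD of a member was 0.22, against 0.15 in the vasectomised and 0.12 in the intact group. Over all genes the corresponding medians were 0.14, 0.10 and 0.10.

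**Figure D1:**
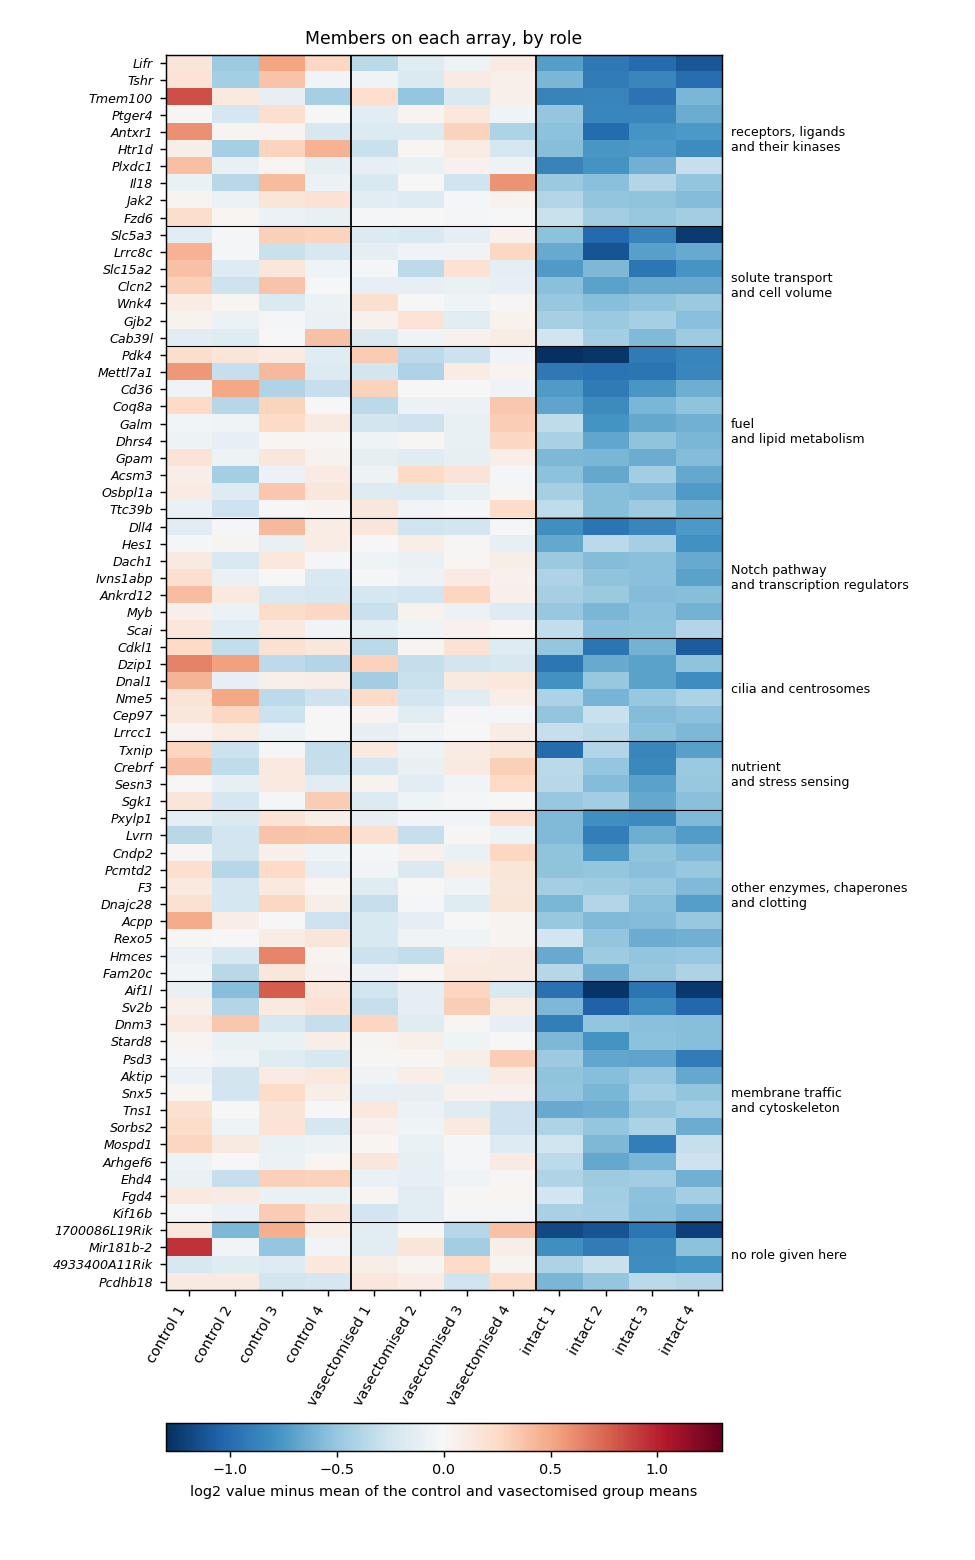
Heat map of the 72 members (rows, grouped by role) on the 12 arrays (columns), as the log2 value minus the mean of the control and vasectomised group means. All 72 members are below 0 on each of the 4 intact arrays, which follows from the selection, while the control arrays scatter to both sides, with the darkest red cells in control 1 and control 3.

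In limma, across all genes, 0.271% were called lower and 0.627% higher in the intact than in the vasectomised group, a call being an adjusted p no greater than 0.05 together with a change of 1.5-fold or more, and 17.6% had an unadjusted p under 0.05. Against control, 2.11% of genes were called lower and 2.78% higher in the intact group, and 0.657% lower and 1.19% higher in the vasectomised group. Of the 72 members, 24 met the criteria for lower in the intact than in the vasectomised group and 38 for lower in the intact than in the control group, 19 of them in both comparisons and 29 in neither of the 2. None was called between the vasectomised and control groups, where the 0.25 limit of the selection lies under the 1.5-fold threshold. The number called there was 0 without variance moderation as well. In that comparison 3 members had an unadjusted p under 0.05 (Psd3, Myb and Kif16b), against 20% of all genes. The 24 became 11 without variance moderation and 13 with the replicate number as a block, and they became 10, 8, 13 and 9 without intact pool 2, intact pool 4, vasectomised pool 3 and vasectomised pool 4, while the 38 stayed between 33 and 45 when 1 array was left out. These counts follow from the selection, which used the same arrays, and nothing is read from them.

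Exchanging the roles of the groups in the same rule gave 112 genes raised after intact mating only, 7 lowered and 15 raised after vasectomised mating only, and 135 lowered and 171 raised to a similar level after both matings. The 3 members nearest to the limit on the drop were Fzd6, Kif16b and Pcdhb18, with drops of 0.402, 0.403 and 0.405 below the nearer group mean, and the nearest genes outside were Ap5m1, Zfp729b and Acbd5, with 0.399, 0.390 and 0.389. For the limit on the other groups, Mettl7a1, Dnal1 and Myb lay just inside, with vasectomised minus control differences of -0.249, -0.245 and -0.245, and Bnipl, Myo3b and Arsj just outside, with -0.253, -0.256 and -0.269. Fam20c, Cep97 and Acsm3 were separated from the other arrays by gaps of 0.0094, 0.014 and 0.0147, whereas Inmt, B3gnt8 and Fundc2 overlapped, with gaps of -0.0035, -0.0036 and -0.0206. Members at these edges were close in value to the genes just beyond them.

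**Figure D2:**
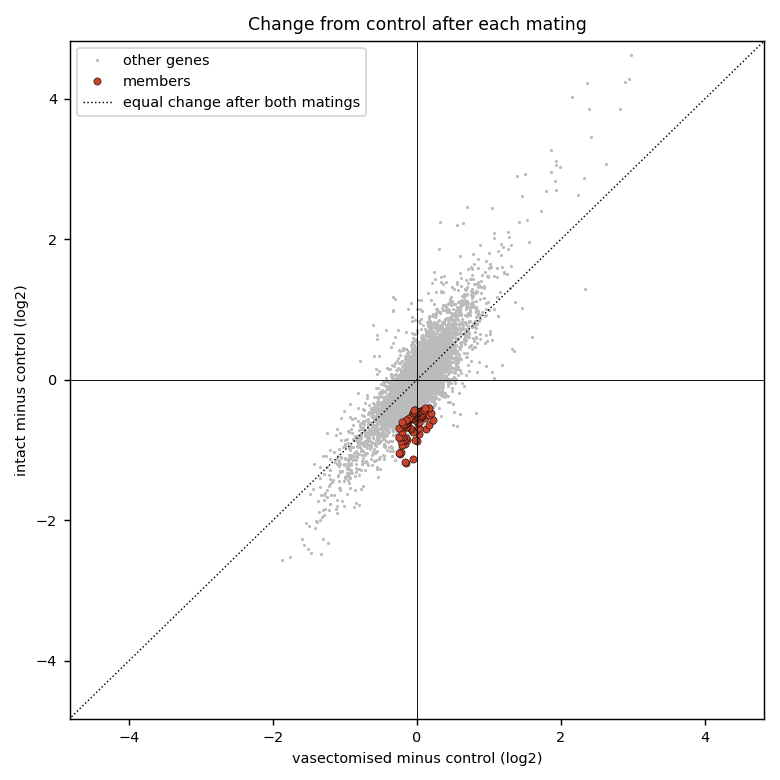
Change from control after mating with vasectomised males (x axis) and with intact males (y axis) for all 19938 genes, in log2 units; members are the filled red points, the dotted line marks equal change, and both axes share the control arrays. The members lie in a narrow band, within 0.25 of 0 on the x axis and between -1.19 and -0.40 on the y axis.

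Fuel and lipid metabolism was the role of 10 members. Pdk4 encodes the kinase that inactivates pyruvate dehydrogenase and so keeps pyruvate from oxidation. It was at 7.96, 7.89, 7.83 and 7.56 on the control arrays, 8.05, 7.39, 7.45 and 7.67 on the vasectomised arrays and 6.41, 6.46, 6.81 and 6.87 on the intact arrays (log2 values, pools 1 to 4 of each group here and below). The intact mean was 2.25-fold below control and 2.01-fold below the vasectomised group (SE of each log2 difference 0.15), and the gap between the highest intact pool and the lowest of the others, 0.51, was the widest of all members. Cd36, which imports long-chain fatty acids, was at 6.40, 6.96, 6.06 and 6.16 in controls, 6.76, 6.46, 6.45 and 6.41 after vasectomised mating and 5.72, 5.54, 5.70 and 5.82 after intact mating. Its intact values were tight, although control pool 2 and vasectomised pool 1 stood above their groups. The intact mean of Cd36, 5.70, lay below 7.28, the median of all transcript clusters, and whether it was above background there is unknown. Mettl7a1, a methyltransferase-like protein of lipid droplets, was at 9.49, 8.64, 9.35 and 8.75 (control), 8.70, 8.54, 9.03 and 8.96 (vasectomised) and 8.00, 7.97, 7.98 and 8.09 (intact). The control pools of Mettl7a1 were split, with pools 1 and 3 high, and the intact pools were close together. A transcript cluster that carries several symbols of the Mettl7a family, and so belongs to no single gene, had means of 8.09, 7.98 and 7.47 in the control, vasectomised and intact groups.

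Drops were smaller for the other enzymes of this role. Gpam, the mitochondrial acyltransferase that starts triglyceride synthesis, was at 10.00, 9.75, 9.97 and 9.86 in controls, 9.70, 9.66, 9.71 and 9.90 after vasectomised and 9.23, 9.22, 9.17 and 9.26 after intact mating, and was 1.59-fold and 1.43-fold lower after intact mating than in the 2 other groups. Coq8a, needed for coenzyme Q synthesis, had 8.27, 7.65, 8.31 and 8.01 (control), 7.67, 7.95, 7.94 and 8.37 (vasectomised) and 7.34, 7.19, 7.42 and 7.49 (intact). Dhrs4, a peroxisomal carbonyl reductase, had 10.52, 10.48, 10.61 and 10.60 in controls, 10.53, 10.60, 10.49 and 10.85 with vasectomised males and 10.16, 9.91, 10.06 and 9.99 with intact males. Intact pools were separated from the other 8 by a gap of 0.40 in Gpam, 0.32 in Dhrs4 and 0.15 in Coq8a. Intact values of Acsm3, a medium-chain acyl-CoA synthetase, were 7.24 to 7.45 against 7.47 to 8.16 on the other 8 arrays, those of the galactose mutarotase Galm 8.79 to 9.24 against 9.30 to 9.89, those of the oxysterol-binding protein Osbpl1a 7.47 to 7.77 against 8.02 to 8.55, and those of Ttc39b, which lowers the level of the sterol-sensing receptor LXR, 8.12 to 8.41 against 8.46 to 8.97. A further transcript cluster for Ttc39b, which the selection did not use, also had its lowest group mean after intact mating (8.58, 8.80 and 8.27 in the control, vasectomised and intact groups), with overlap between arrays.

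**Figure D3:**
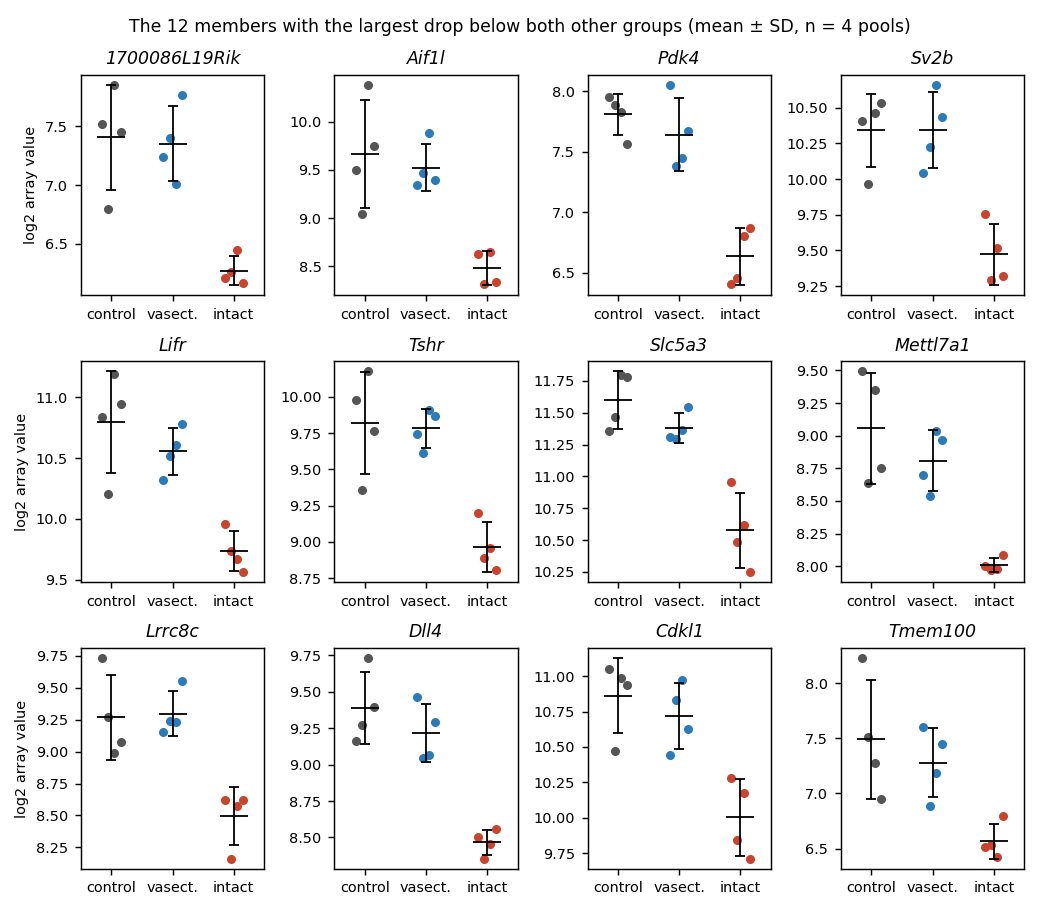
Log2 values (y axis) of the 12 members with the largest drop below both other groups, by group (x axis); points are the 4 pools in order of replicate number, and the bars give mean ± SD. No intact pool reaches the control or vasectomised pools in any panel, and for 1700086L19Rik, Aif1l, Lifr and Tmem100 the spread among control pools is wide.

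Nutrient and stress sensing had 4 members. Txnip, an inhibitor of thioredoxin that restrains glucose uptake, was at 12.38, 11.83, 12.09 and 11.80 in controls, 12.24, 12.04, 12.21 and 12.26 after vasectomised mating and 11.11, 11.72, 11.26 and 11.40 after intact mating. Its vasectomised pools were tight and intact pool 2 came within 0.07 of the lowest control pool. Sesn3, a sestrin that restrains mTORC1, was at 9.73, 9.62, 9.84 and 9.57 (control), 9.77, 9.58, 9.69 and 9.99 (vasectomised) and 9.37, 9.16, 9.03 and 9.23 (intact), a drop of 1.41-fold from control. Sgk1, a kinase that responds to corticosteroids and insulin and raises epithelial sodium uptake, was at 8.37, 8.00, 8.19 and 8.54 (control), 8.04, 8.16, 8.20 and 8.23 (vasectomised) and 7.72, 7.76, 7.55 and 7.67 (intact), 1.52-fold below control. Crebrf, a regulator of energy storage, had intact values of 7.93 to 8.41 against 8.44 to 9.15 on the other arrays, so the groups only just separated.

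A list of 36 FOXO targets and fasting response genes holds Pdk4, Txnip and Sesn3. Outside these 3 members, limma called 1 of 33 lower in the intact than in the vasectomised group, Ppargc1a, and none higher. The list median was -0.12 without members against 0.02 over all genes. In limma 9 of these 33 had an unadjusted p under 0.05 in that comparison, against 17.6% of all genes. Between intact and control 18 of the 33 did, against 27.8% of all genes. Ppargc1a, a coactivator of mitochondrial genes, had means of 7.74, 8.41 and 7.80 in the control, vasectomised and intact groups. It was higher after vasectomised mating than in controls (log2 difference 0.67, limma adjusted p = 0.0134) and lower after intact than after vasectomised mating (-0.61, adjusted p = 0.0328), and its intact mean was close to control (0.06, adjusted p = 0.84). The call against the vasectomised group was lost in 11 of 19 alternative settings, among them quantile normalization and leaving out any single vasectomised pool or intact pool 2, 3 or 4, and the call against control was lost without control pool 3. Against control, limma called 2 genes of the list outside the members lower after intact mating, Cat and Per1, and 2 higher, Bnip3 and Depp1. The call for Bnip3 was lost in 14 of 21 settings, that for Per1 without control pool 1 or 3, and those for Per1 and Cat with controls 1 and 2 alone. After vasectomised mating Cat was also called lower and Depp1 higher than in controls, the call for Cat being lost in 4 of 21 settings. In a list of 32 measured PPAR targets and fatty acid oxidation genes, Pdk4 and Cd36 were the members, and none of the other 30 was called lower or higher than after vasectomised mating, with a median of -0.03 without members. In limma 14 of these 30 had an unadjusted p under 0.05, against 17.6% of all genes. Of those 30, Pparg, Vnn1 and Lpin2 were higher after intact mating than in controls, by 0.79, 0.67 and 0.63. The call for Lpin2 was lost without control pool 3 and those for Lpin2 and Vnn1 without intact pool 2. Pparg was also called higher after vasectomised mating than in controls, a call lost in 5 of 21 settings. The 19 genes of PGC-1 alpha and mitochondrial biogenesis held no member and had a median of 0.05 against the vasectomised group, and only Ppargc1a among them was called there.

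Sterol synthesis held no member among 20 measured genes, and 15 of them were called higher in the intact than in the vasectomised group and 9 higher than in controls, with a median of 0.92 against the vasectomised group. The 15 became 5 without intact pool 2 or intact pool 4, 7 without vasectomised pool 3 or 4, 8 with the replicate block and 7 without variance moderation, and the 9 became 6 without control pool 1, intact pool 2 or 4, or variance moderation. Cyp51, a demethylase of that pathway, was 1.51 higher than after vasectomised mating (limma adjusted p = 0.00914), and Lss, which closes the sterol rings, 1.46 higher (adjusted p = 0.0112), and both calls held in all 19 settings. In the list of LXR targets and sterol efflux, with Ttc39b as its member, 0 of 16 genes were called in limma between the intact and vasectomised groups, and 7 of the 15 outside the members had an unadjusted p under 0.05 (17.6% of all genes). Dhrs4 was the member of a list of 40 conjugation and carbonyl reduction genes. Called lower in the same comparison were also the sulfotransferase Sult1d1 (-1.29, adjusted p = 0.0107) and the reductase Akr1c19 (-1.08, adjusted p = 0.00755), and for both the vasectomised mean lay above control, by 0.82 and 0.59. Both calls between the mated groups held in all 19 settings. The autophagy list of 30 genes held no member, and limma called 0 of them in either direction against the vasectomised group, with a median of -0.11 and 11 at an unadjusted p under 0.05, again against 17.6% of all genes.

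**Figure D4:**
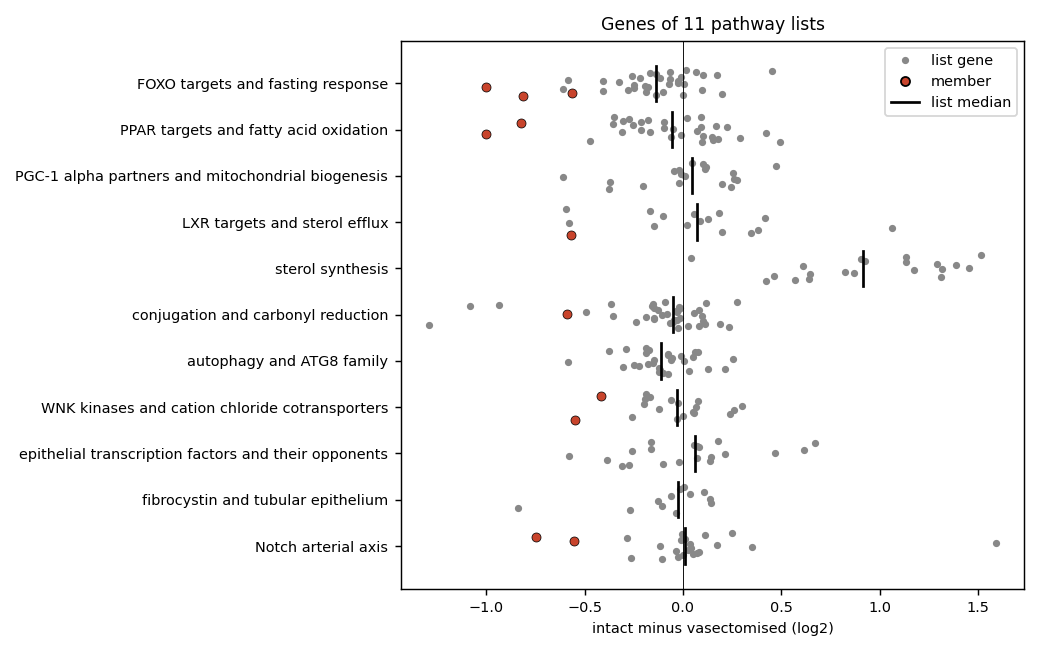
Intact minus vasectomised differences (x axis, log2 units) of every measured gene in 11 pathway lists (rows); red points are members, which the selection placed on the left, and bars are list medians. The sterol synthesis list sits to the right with a median of 0.92, and the medians of the other 10 lists lie between -0.14 and 0.07.

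Solute transport and cell volume had 7 members. Slc5a3 carries sodium and myo-inositol, an organic osmolyte, into the cell. It was at 11.35, 11.47, 11.80 and 11.78 in controls, 11.31, 11.30, 11.36 and 11.55 after vasectomised mating and 10.96, 10.48, 10.62 and 10.25 after intact mating, 2.03-fold and 1.74-fold lower than in these groups (SE 0.14). The intact pools were more dispersed than the vasectomised pools, with pool 1 the highest and pool 4 the lowest. Lrrc8c, a subunit of the volume-regulated anion channel, was at 9.73, 9.27, 8.99 and 9.08 (control), 9.16, 9.24, 9.23 and 9.55 (vasectomised) and 8.62, 8.16, 8.58 and 8.62 (intact). Intact pool 2 stood far below the other 3 intact pools. Lrrc8a, the subunit that all such channels need and no member, had means of 10.28, 9.97 and 9.85 in the control, vasectomised and intact groups, with log2 differences of -0.31 between vasectomised and control and -0.12 between intact and vasectomised (limma adjusted p = 0.0397 and 0.454), neither of them a call. Its intact mean was 0.42 below control (adjusted p = 0.00313), less than the 1.5-fold a call requires. The peptide carrier Slc15a2 was at 10.21, 9.66, 9.98 and 9.78 (control), 9.80, 9.49, 10.01 and 9.70 (vasectomised) and 9.09, 9.25, 8.89 and 9.06 (intact), and the chloride channel Clcn2 at 10.73, 10.15, 10.79 and 10.41 (control), 10.31, 10.31, 10.33 and 10.31 (vasectomised) and 9.87, 9.72, 9.77 and 9.76 (intact). In Clcn2 the vasectomised pools were nearly identical and the intact pools were close together, and control pool 2 was the lowest of the other 8.

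Wnk4, a kinase that sets the activity of chloride cotransporters and sodium channels, was at 8.73, 8.66, 8.45 and 8.56 in controls, 8.84, 8.63, 8.58 and 8.65 after vasectomised and 8.14, 8.08, 8.11 and 8.16 after intact mating. Cab39l, a scaffold that activates the kinases downstream of WNKs, had intact values of 9.61 to 9.93 against 10.00 to 10.57, and the gap junction protein Gjb2 (connexin 26) 11.35 to 11.47 against 11.76 to 12.07. Wnk4 and Gjb2 had small spreads within every group, whereas intact pool 1 of Cab39l nearly reached the lowest vasectomised pool. Among 17 other genes of WNK kinases and cation chloride cotransporters, limma called 0 between the intact and vasectomised groups. Of these 17, 5 had an unadjusted p under 0.05, against 17.6% of all genes, and their median was -0.03. Wnk1, Oxsr1 and Slc12a2 differed by 0.00, 0.08 and -0.20. Slc12a7, a potassium chloride cotransporter, was called higher after intact mating than in controls, by 0.79 (adjusted p = 0.00109), a call lost with controls 1 and 2 alone.

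Receptors, ligands and their kinases had 10 members, with drops of 0.40 to 0.82 below the nearer group mean and a median of 0.63. The selection used the drop, so roles are not compared by it. Lifr, the receptor subunit that binds LIF, was at 10.84, 10.20, 11.19 and 10.94 in controls, 10.32, 10.52, 10.60 and 10.78 after vasectomised mating and 9.96, 9.74, 9.67 and 9.56 after intact mating, 2.08-fold and 1.77-fold lower (SE 0.18). Control pool 2 was the lowest control and still lay above every intact pool. The ligand Lif, no member, moved the other way, with means of 8.53, 9.0 and 9.67, and was 1.14 higher after intact mating than in controls (limma adjusted p = 8.18e-04) and 0.68 higher than after vasectomised mating (adjusted p = 0.0532). Il6st, which encodes the gp130 subunit that pairs with LIFR, had means of 12.34, 12.18 and 11.88 and was not called in either comparison with intact mating (-0.46 and -0.30, adjusted p = 0.0184 and 0.176), the former because its fold-change was below 1.5. Jak2, a kinase of cytokine receptors, had intact values of 11.16 to 11.35 against 11.56 to 11.91.

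Tshr, the thyrotropin receptor, was at 9.98, 9.35, 10.17 and 9.76 in controls, 9.74, 9.61, 9.91 and 9.87 after vasectomised mating and 9.20, 8.89, 8.96 and 8.80 after intact mating, 1.81-fold and 1.76-fold lower. Ptger4, the EP4 receptor for prostaglandin E2, was at 10.53, 10.29, 10.73 and 10.52 (control), 10.37, 10.55, 10.65 and 10.46 (vasectomised) and 10.01, 9.67, 9.67 and 9.87 (intact), 1.64-fold and 1.63-fold lower. The control and vasectomised pools of both receptors overlapped, and each intact pool lay below them. Ptger2, which encodes the EP2 receptor for the same prostaglandin and is no member, had means of 6.81, 7.35 and 7.03, and was not called after intact mating against either group (0.22 against control and -0.32 against vasectomised, adjusted p = 0.288 and 0.172). Htr1d, a serotonin receptor, was at 8.64, 8.13, 8.85 and 9.01 (control), 8.28, 8.59, 8.66 and 8.33 (vasectomised) and 8.01, 7.80, 7.82 and 7.75 (intact). Antxr1, a collagen-binding receptor, was at 12.36, 11.80, 11.80 and 11.56 (control), 11.59, 11.59, 12.07 and 11.36 (vasectomised) and 11.23, 10.77, 11.00 and 11.02 (intact), with intact pool 1 the highest of its group in both genes.

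Tmem100, a target of BMP signalling in endothelium, was at 8.23, 7.51, 7.28 and 6.95 in controls, 7.60, 6.88, 7.18 and 7.45 after vasectomised mating and 6.52, 6.53, 6.42 and 6.80 after intact mating. Its control pools spanned more than the distance between the group means, with pool 1 the highest. Plxdc1, a transmembrane protein first described in tumour vessels, was at 9.10, 8.61, 8.74 and 8.58 (control), 8.60, 8.62, 8.76 and 8.65 (vasectomised) and 7.84, 7.93, 8.08 and 8.41 (intact), and its intact pool 4 stood apart upwards. The cytokine Il18 had intact values of 6.40 to 6.57 against 6.58 to 7.53, and the Wnt receptor Fzd6 9.76 to 9.95 against 10.15 to 10.47, the latter with the smallest drop of all members.

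Notch pathway genes and transcription regulators gave 7 members. Dll4, a Notch ligand of arteries and sprouting capillaries, was at 9.16, 9.27, 9.73 and 9.39 in controls, 9.46, 9.05, 9.06 and 9.29 after vasectomised mating and 8.50, 8.35, 8.46 and 8.56 after intact mating, 1.89-fold and 1.68-fold lower (SE 0.12). Hes1, a repressor that Notch activates, was at 9.89, 9.94, 9.81 and 9.99 (control), 9.89, 9.98, 9.92 and 9.79 (vasectomised) and 9.23, 9.55, 9.47 and 9.11 (intact). Control and vasectomised pools of Hes1 covered a narrow range, and the intact pools formed a higher and a lower pair. In the list of 23 Notch and arterial genes, Hey1, a further Notch target and no member, was higher after intact mating, by 1.59 against the vasectomised group (limma adjusted p = 0.00568) and 2.23 against control (adjusted p = 3.1e-05). None of the other 20 non-members of that list was called between the intact and vasectomised groups, among them Notch1, Notch4, Rbpj and Gja5 with differences of -0.04, 0.05, -0.02 and -0.01, and the list median without members was 0.03. With Hey1, 4 of the 21 non-members had an unadjusted p under 0.05 in that comparison, against 17.6% of all genes. Between intact and control, limma called 2 non-members higher, Hey1 among them, and 0 lower. There 7 of the 21 had an unadjusted p under 0.05, against 27.8% of all genes. Dach1, a transcription regulator, was at 9.49, 9.18, 9.51 and 9.36 (control), 9.31, 9.29, 9.40 and 9.45 (vasectomised) and 8.89, 8.81, 8.83 and 8.72 (intact), with a gap of 0.29 between its intact pools and the others.

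Myb, a transcription factor of proliferating progenitor cells, had intact values of 10.38 to 10.50 against 10.71 to 11.27, and Ankrd12, a nuclear receptor corepressor partner, 7.38 to 7.52 against 7.71 to 8.35. Scai, which inhibits actin-regulated transcription by MRTF, had 7.98 to 8.21 against 8.39 to 8.67. Ivns1abp, a kelch protein, was at 10.91 to 11.21 on intact arrays and 11.41 to 11.81 on the others. A separate cluster for Ivns1abp, not used by the selection, showed means of 8.96, 8.97 and 8.87 and overlapping arrays, so the groups were not separated with those probes.

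Cilia and centrosomes accounted for 6 members. Cdkl1, a kinase that limits cilium length, was at 11.05, 10.47, 10.99 and 10.94 in controls, 10.44, 10.83, 10.97 and 10.63 after vasectomised mating and 10.28, 9.84, 10.18 and 9.71 after intact mating, 1.81-fold and 1.64-fold lower. Dzip1, a basal body protein, was at 8.09, 7.97, 7.09 and 7.06 (control), 7.74, 7.13, 7.20 and 7.24 (vasectomised) and 6.50, 6.78, 6.75 and 6.91 (intact). Dnal1, a light chain of the outer dynein arms of motile cilia, was at 7.63, 7.09, 7.26 and 7.28 (control), 6.74, 6.90, 7.31 and 7.33 (vasectomised) and 6.41, 6.70, 6.50 and 6.38 (intact). In Dzip1, control pools 1 and 2 and vasectomised pool 1 stood above all others, and Dnal1 had low vasectomised pools 1 and 2. Nme5, a protein of motile cilia, had intact values of 5.40 to 5.60 against 5.66 to 6.51, with control pools 1 and 2 above pools 3 and 4 by 0.64 on average. Values of the centriolar proteins were 6.12 to 6.39 against 6.41 to 6.96 for Cep97 and 7.13 to 7.40 against 7.60 to 7.80 for Lrrcc1.

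Membrane traffic and the cytoskeleton were the role of 14 members. Aif1l, an actin-binding protein, was at 9.50, 9.04, 10.39 and 9.75 in controls, 9.34, 9.47, 9.88 and 9.39 after vasectomised mating and 8.63, 8.32, 8.65 and 8.34 after intact mating, 2.27-fold and 2.05-fold lower (SE 0.23). The control pools were widely spread, with pool 3 highest and pool 2 lowest. Sv2b, a glycoprotein of secretory vesicles, was at 10.41, 9.96, 10.46 and 10.53 (control), 10.04, 10.22, 10.66 and 10.44 (vasectomised) and 9.76, 9.29, 9.52 and 9.32 (intact), with the same mean of 10.34 in controls and after vasectomised mating. Psd3, an exchange factor for the small GTPase ARF6, was at 8.71, 8.68, 8.57 and 8.53 (control), 8.74, 8.75, 8.81 and 9.06 (vasectomised) and 8.26, 8.06, 8.05 and 7.82 (intact). Stard8 was at 8.74, 8.62, 8.62 and 8.80 (control), 8.74, 8.78, 8.65 and 8.70 (vasectomised) and 8.12, 7.93, 8.17 and 8.16 (intact), with a gap of 0.45. Dnm3, a dynamin that cuts vesicles from membranes, was at 7.13, 7.36, 6.80 and 6.71 (control), 7.29, 6.85, 7.02 and 6.90 (vasectomised) and 6.11, 6.49, 6.46 and 6.45 (intact), with intact pool 1 below the other intact pools.

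Tns1, the focal adhesion protein tensin 1, was covered by 6 transcript clusters. The one chosen for its highest mean read 10.13 to 10.34 on intact arrays and 10.52 to 10.99 on the others. Of the 5 clusters that the selection did not use, all had lower means after intact mating than in either other group, with differences of -0.63 to -0.12 against control and -0.66 to -0.26 against the vasectomised group, and 2 would have met the rule by themselves. These clusters share RNA and arrays with the chosen one. The second Psd3 cluster had means of 6.32, 6.63 and 6.11 and its arrays overlapped. Intact values of the other members of this role lay between 8.15 and 8.79 for Mospd1, 7.52 to 7.91 for Arhgef6, 8.04 to 8.32 for Fgd4, 9.69 to 9.87 for Kif16b, 9.83 to 10.07 for Sorbs2, 10.04 to 10.28 for Ehd4, 10.64 to 10.81 for Aktip and 11.25 to 11.41 for Snx5. Arhgef6 and Fgd4 are exchange factors for Rac and Cdc42, Snx5 is a sorting nexin, and Kif16b and Ehd4 act on endosomes. The lowest control or vasectomised values of these 8 were 8.88, 8.08, 8.43, 10.05, 10.21, 10.37, 11.07 and 11.60, in the same order.

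Enzymes, chaperones and a clotting factor made up 10 further members. Pxylp1, a xylose phosphatase of proteoglycan synthesis, was at 8.20, 8.13, 8.49 and 8.39 in controls, 8.20, 8.27, 8.28 and 8.54 after vasectomised and 7.74, 7.51, 7.49 and 7.74 after intact mating. Lvrn, the aminopeptidase laeverin, was at 7.51, 7.62, 8.24 and 8.23 (control), 8.09, 7.57, 7.88 and 7.80 (vasectomised) and 7.30, 6.96, 7.23 and 7.14 (intact). F3, tissue factor, which starts the extrinsic clotting pathway, was at 12.25, 11.91, 12.26 and 12.15 (control), 11.97, 12.12, 12.09 and 12.28 (vasectomised) and 11.68, 11.66, 11.64 and 11.55 (intact). The intact pools of F3 were close together, and in Lvrn control pools 1 and 2 were below pools 3 and 4 (mean difference -0.67). Cndp2, a cytosolic dipeptidase, had intact values of 11.30 to 11.52 against 11.81 to 12.32, and Fam20c, the secretory pathway kinase, 11.13 to 11.40 against 11.41 to 11.92. For Acpp, an acid phosphatase, the values were 8.54 to 8.63 against 8.85 to 9.61, and for Hmces, which shields abasic sites in DNA, 8.28 to 8.47 against 8.61 to 9.57. Pcmtd2 had 8.81 to 8.86 against 8.98 to 9.61, Dnajc28 6.16 to 6.49 against 6.57 to 7.14, and the RNA exonuclease Rexo5 6.98 to 7.38 against 7.43 to 7.79. Acsm3 and Rexo5 are next to each other in the RefSeq gene order, the only such pair among the members.

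The largest drop below both groups belonged to 1700086L19Rik, a long noncoding RNA, at 7.52, 6.79, 7.86 and 7.45 in controls, 7.24, 7.40, 7.01 and 7.76 after vasectomised mating and 6.21, 6.26, 6.44 and 6.17 after intact mating, 2.20-fold and 2.12-fold lower (SE 0.20). Its intact mean of 6.27 lay below 7.28, the median of all transcript clusters, and whether it was above background there is unknown. Its intact pools were close together and its control and vasectomised pools were not. The pseudogene 4933400A11Rik had intact values of 4.64 to 5.17 against 5.25 to 5.70, and Pcdhb18, a protocadherin, 6.38 to 6.62 against 6.72 to 7.22. Mir181b-2 was the only microRNA gene, at 7.96, 6.98, 6.52 and 6.98 in controls, 6.87, 7.18, 6.57 and 7.10 after vasectomised mating and 6.22, 6.11, 6.19 and 6.49 after intact mating. Control pool 1 stood far above the rest, and control pool 3 came within 0.03 of intact pool 4. The probes read RNA of the locus, not the mature microRNA, whose 5p form is shared with the gene Mir181b-1. Because it is the only member that acts through a short sequence, its mature forms are shown as RefSeq gives them for GRCm38.p6 (chr2:38853845-38853868 and chr2:38853883-38853904, + strand), with the seed, bases 2 to 8, in capitals.
mmu-miR-181b-5p: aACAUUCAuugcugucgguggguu
mmu-miR-181b-2-3p: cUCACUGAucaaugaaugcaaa

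By gene type, 69 members were protein coding, and 13 had a mean below the median of all transcript clusters, 7.28. These 13 include Cd36, Nme5 and 4933400A11Rik, and whether they were above background is unknown. Promoters were taken from RefSeq (GRCm38.p6), where 55 of the 72 members matched an entry. GGGCGG on either strand, the GC box, was present in the 250 bases before the start for 38 of the 55 members (69.1%), against 49.4% of 15563 genes. AGGTCA, a core of nuclear receptor sites, was found for 12 members (21.8% against 14.3%), and CACGTG, an E-box, for 7 (12.7% against 8.12%). TGGGAA, the core bound by RBPJ, occurred for 15 members (27.3% against 23.7%), AGAACA, a core of steroid receptor sites, for 7 (12.7% against 15.3%), and GTAAACA, the forkhead motif, for 2, Txnip and Acsm3 (3.64% against 3.18%). TGACGTCA, the CRE, and TTCCNGGAA, a STAT motif, were found for 0 members before the start, against 2.34% and 1.18% of genes. Both strands were searched for each, and none of the 96 GC box matches in the members' windows, matches that overlap each other counted separately, overlapped a match to another of these motifs. The 55 members had 80 promoter windows, so some genes had several starts, and the number of windows per gene was not matched between members and all genes. The members were compared with all genes and not with genes expressed in endometrium, so the shares of the GC box and of the other motifs are a description only.

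The upstream sequences of 6 members are shown because they stand for the fuel, osmolyte, prostaglandin and Notch genes above, and range from 0 to 4 GC boxes. Capitals mark GGGCGG or its reverse, and each sequence ends at the base before the start. They lie at chr6:5496279-5496528 on the - strand (Pdk4), chr3:96557707-96557956 on the + strand (Txnip), chr16:92058072-92058321 on the + strand (Slc5a3), chr5:105519221-105519470 on the + strand (Lrrc8c), chr15:5244188-5244437 on the - strand (Ptger4) and chr2:119325534-119325783 on the + strand (Dll4).
Pdk4: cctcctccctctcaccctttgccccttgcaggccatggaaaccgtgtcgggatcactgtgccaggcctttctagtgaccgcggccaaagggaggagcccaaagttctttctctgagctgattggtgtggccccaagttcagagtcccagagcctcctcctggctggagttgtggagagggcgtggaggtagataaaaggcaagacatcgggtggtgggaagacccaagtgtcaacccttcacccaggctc
Txnip: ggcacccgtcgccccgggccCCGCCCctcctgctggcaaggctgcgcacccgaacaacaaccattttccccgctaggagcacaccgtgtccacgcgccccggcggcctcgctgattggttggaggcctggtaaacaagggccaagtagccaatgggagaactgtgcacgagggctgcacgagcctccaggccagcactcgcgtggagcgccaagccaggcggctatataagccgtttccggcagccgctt
Slc5a3: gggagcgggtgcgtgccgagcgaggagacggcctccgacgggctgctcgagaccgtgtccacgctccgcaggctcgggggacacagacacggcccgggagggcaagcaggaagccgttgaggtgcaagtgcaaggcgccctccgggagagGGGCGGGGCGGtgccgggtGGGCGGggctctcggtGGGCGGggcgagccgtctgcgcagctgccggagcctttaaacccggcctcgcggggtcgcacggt
Lrrc8c: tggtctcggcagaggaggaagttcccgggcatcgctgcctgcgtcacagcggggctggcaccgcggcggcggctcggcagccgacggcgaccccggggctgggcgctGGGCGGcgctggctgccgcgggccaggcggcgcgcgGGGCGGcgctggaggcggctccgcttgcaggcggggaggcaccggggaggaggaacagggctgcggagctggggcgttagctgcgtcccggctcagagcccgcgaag
Ptger4: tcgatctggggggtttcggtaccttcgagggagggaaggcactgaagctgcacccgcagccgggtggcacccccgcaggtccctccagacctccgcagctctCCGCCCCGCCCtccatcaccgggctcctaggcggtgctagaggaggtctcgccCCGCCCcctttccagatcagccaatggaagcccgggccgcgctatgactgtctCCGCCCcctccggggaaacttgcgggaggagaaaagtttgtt
Dll4: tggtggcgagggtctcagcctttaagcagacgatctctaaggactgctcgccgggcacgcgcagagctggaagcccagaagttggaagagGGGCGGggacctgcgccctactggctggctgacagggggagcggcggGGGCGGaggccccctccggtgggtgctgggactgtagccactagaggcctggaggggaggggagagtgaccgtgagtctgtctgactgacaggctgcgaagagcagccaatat
Pdk4 holds no GC box but an RBPJ core, Txnip 1 GC box and a forkhead match in lower case, and Slc5a3 and Ptger4 each 4 GC boxes, a pair of which overlap in each. Their differences from control, -1.17 for Pdk4, -0.65 for Txnip, -1.02 for Slc5a3, -0.77 for Lrrc8c, -0.71 for Ptger4 and -0.92 for Dll4, did not order them by the number of matches.

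Cell type markers were followed on the same arrays, since the tissue is a mixture. Epithelial markers had list means of 12.05 to 12.18 on control, 12.14 to 12.21 on vasectomised and 12.20 to 12.24 on intact arrays, each intact mean above every control mean. Limma called 0 of the 14 epithelial markers in any comparison, and 5 had an unadjusted p under 0.05 between intact and vasectomised and 5 between intact and control, where 17.6% and 27.8% of all genes did. Of 18 neutrophil markers, 6 were called higher after intact mating than in the vasectomised group and 6 higher than in controls, and the list mean was 6.73 to 6.87 on control, 6.83 to 6.98 on vasectomised and 7.14 to 7.45 on intact arrays. The first of these counts became 3 without intact pool 4, vasectomised pool 3 or variance moderation, and the second was 6 without any 1 array. Stromal markers had medians of -0.55 (intact) and -0.35 (vasectomised) against control and -0.12 between the mated groups, and list means of 9.0 to 9.93, 8.94 to 9.59 and 8.62 to 9.37 in the control, vasectomised and intact groups. Limma called 3 of the 17 stromal genes lower (Col6a3, Lum and Col1a1) and 1 higher (Postn) after intact mating than in controls. In that comparison 11 had an unadjusted p under 0.05. The calls for Col1a1 and Postn were lost in 12 and 8 of 21 settings, and that for Lum with controls 3 and 4 alone. Col6a3 was also called lower and Postn higher after vasectomised mating than in controls, the latter call being lost in 12 of 21 settings. Between the mated groups limma called 0 stromal genes, and 1 had an unadjusted p under 0.05. Blood endothelium, to which Dll4, Tmem100 and Plxdc1 relate, had 0 of 21 markers called between the mated groups and 1 at an unadjusted p under 0.05. Its medians after intact mating were -0.12 against the vasectomised group and -0.23 against control. Against control, limma called 1 endothelial marker, Flt1, higher after intact mating and 0 lower, and 4 had an unadjusted p under 0.05. The call for Flt1 held in all 21 settings. The part of these shifts in the members' values was not tested.

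**Figure D5:**
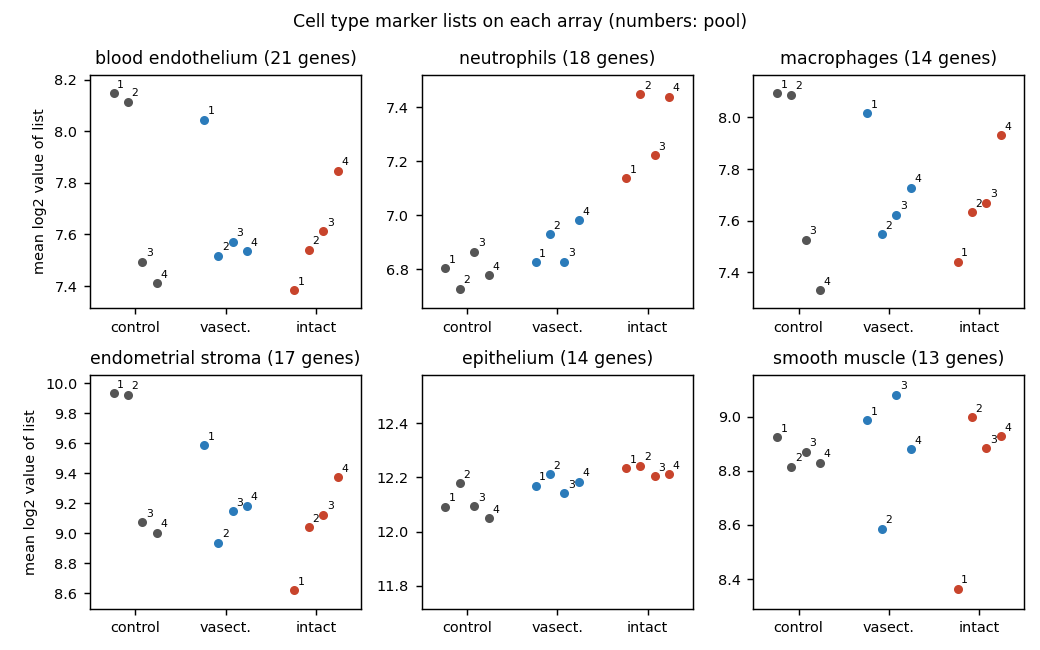
Mean log2 value (y axis) of 6 cell type marker lists on each array, by group (x axis), with pool numbers beside the points. Neutrophil markers are highest on the 4 intact arrays, epithelial markers stay between 12.05 and 12.24, and blood endothelium, macrophage and stromal markers are high in control pools 1 and 2 and vasectomised pool 1. Among the intact pools, blood endothelium, macrophage and stromal markers are lowest in pool 1 and highest in pool 4.

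Other marker lists gave 0 calls between the mated groups in limma, where 17.6% of all genes had an unadjusted p under 0.05: lymphatic endothelium (2 of 9 at that p), macrophages (0 of 14), T, NK and B cells (1 of 14), uterine glands (1 of 8), smooth muscle (1 of 13), fat and mesothelium (0 of 9), oviduct and ovary (1 of 12), red cells (0 of 2) and sperm and accessory glands (2 of 12). The lymphatic list has 12 genes, among them Ccl21a, Ccl21b and Ccl21c, and 9 were measured. Clusters that carry these Ccl21 symbols together lie outside the gene table. Their means were 9.49, 9.39 and 7.90 in the control, vasectomised and intact groups, a difference of -1.50 between the mated groups. Macrophage means, like those of stroma and blood endothelium, were higher in control pools 1 and 2, at 8.09 and 8.09, than in pools 3 and 4, at 7.53 and 7.33. Control pools 1 and 2 both exceeded pools 3 and 4 for 18 members and both lay below them for 23, against 20.0% and 30.1% of all genes. Dzip1, Tmem100 and Mir181b-2 were the members highest in pools 1 and 2 (0.95, 0.75 and 0.72 above pools 3 and 4), and Aif1l, Lvrn, Lifr and Htr1d the lowest (-0.79, -0.67, -0.55 and -0.55). With controls 1 and 2 alone the rule gave 94 genes, 52 of them among the 72, and with controls 3 and 4 alone 78 genes, 44 of them among the 72. Epithelial transcription factors and their opponents (20 genes) and fibrocystin with tubular epithelium (12 genes) held no member. In those lists limma called Elf5 higher (0.67, adjusted p = 0.0459) and Pkhd1, which encodes fibrocystin, lower (-0.84, adjusted p = 0.00433) in the intact than in the vasectomised group. The call for Elf5 was lost in 9 of 18 settings, among them leaving out any vasectomised pool or intact pool 1, 2 or 4, and that for Pkhd1 held in all 19. Between intact and control, limma called 5 of the 20 genes of the epithelial transcription factor list higher and 2 lower. In that comparison 12 of the 20 had an unadjusted p under 0.05, against 27.8% of all genes. None of the 12 genes of the fibrocystin list was called there.

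Membership depended on single arrays for many genes. Leaving out each of the 12 arrays in turn, 28 members met the rule every time, among them Sv2b, Tshr, Lrrc8c, Ptger4, Slc15a2, Hes1, Sesn3, Sgk1, Wnk4 and F3, and the least stable, Fgd4 and Fzd6, met it 6 times of 12. Pdk4, Dll4, Cd36, Txnip and 1700086L19Rik met it 11 times, and Lifr and Slc5a3 9 times. Intact pool 1 was the highest intact pool for 36 of the 72 members, and the median distance of the members from the mean of the other groups was -0.52 in this pool against -0.59, -0.59 and -0.60 in pools 2, 3 and 4. Without that pool the rule gave 111 genes, 70 of them among the 72.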

How the data were processed

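Endometrial RNA was measured on 12 Affymetrix Mouse Gene 1.0 ST arrays, 4 per group, each with 300 ng of RNA from a pool of 4 females. Groups and replicate numbers came from the sample labels. The values deposited by the authors are on the log2 scale, with array medians of 7.25 to 7.32. Per the methods, background was corrected by RMA in the Partek software, which also corrected for probe GC content and averaged the probes of a transcript cluster. Versions and genome build: not given in the sources used here. Normalized values were used as deposited, and 0 per-array columns were left out. Scanner files were not analysed here, so detection above background is unknown, and the 4 arrays per group limit the precision.

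Of 35556 transcript clusters, 21789 carried 1 gene symbol in the array annotation, 1621 several and 12146 none. Each of 19938 genes was represented by its cluster with the highest mean. The members, the gene lists and the roles were chosen with earlier results of these data known. Genes were named as follows: the 30 members with the largest drop, all members of a list, the 3 genes on each side of every limit, and up to 4 genes of each pathway list by size of difference. Other genes, among them Lif, Il6st, Lrrc8a and Ptger2, were named after their values were seen.

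All clusters were fitted with 1 mean per group in limma 3.58.1 (R 4.3.3, residual and prior degrees of freedom 9 and 3.258) with Benjamini-Hochberg adjustment. The fit was tested on simulated data (35556 clusters). Genes lowered 2-fold in the intact group were called in 89.6% of 67 cases against the vasectomised group, and those lowered 1.5-fold in 38.8% of 67. A drop of 1.5-fold lies at the limit of a call, which by itself holds the latter share down. Simulated clusters that were not lowered had no group difference, whereas the real arrays had genes called in both directions. Of those unchanged clusters, 4 were called against the vasectomised group. The noise was drawn independently for each cluster and array, whereas whole marker lists shifted together between the real pools. The simulated shares therefore need not hold for the real arrays. A call combined a change of 1.5-fold or more with an adjusted p up to 0.05, as in the methods. Pools were stated to be independent biological replicates. Promoter windows came from RefSeq. Alternatives were quantile normalization, median centring, leaving out each array, a replicate block, no variance moderation, trend with robust moderation, fits of 2 groups, no fold threshold, no dim clusters, stricter limits of the rule and, added after seeing the data, only controls 1 and 2 or only controls 3 and 4.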

Additional observations from a re-analysis of the deposited data

Results flagged for a closer look

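Among 90 sets of 4 pools (30 leading members in 3 groups), 3 (3.33%) held a pool that stood apart from the other 3 by Dixon's criterion. The usual chance share of about 5% does not apply, because the selection used these same values, and nothing is read from the share. For Lrrc8c, intact pool 2 was at 8.16 and the other intact pools at 8.58 to 8.62. For Cd36, vasectomised pool 1 was at 6.76 and the others at 6.41 to 6.46. For Dnm3, intact pool 1 was at 6.11 and the others at 6.45 to 6.49.

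Transcript clusters outside the gene table also met the same conditions, 8 of 1621 clusters with several symbols and 55 of 12146 without a symbol. Of the 8, 4 carry the same symbols of the Ccl21 family with identical values and are 1 measurement, with means of 9.49, 9.39 and 7.90 in the control, vasectomised and intact groups, differences of -1.59 from control and -1.50 from the vasectomised group. These clusters cannot be assigned to 1 gene and were not counted among the 72.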

How the results depend on the processing

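The number of genes lowered after intact mating only was 72, and it became 26 with a drop of at least 1.5-fold, 46 with the other groups within 0.15, and 60 to 111 when 1 array was left out (111 without intact pool 1). Quantile normalization gave 56 genes (55 shared) and median centring 57 (56 shared). Replicate numbers did not pair the arrays, since deviations of same-numbered arrays correlated between -0.26 and 0.20. With the replicate block, genes lower in the intact than in the vasectomised group numbered 33 instead of 54, and list genes outside the members called higher 10 instead of 17. Without variance moderation these became 24 and 8, genes higher in the intact than in the vasectomised group 67 instead of 125, and genes lower in the vasectomised group than in controls 74 instead of 131. A fit of the 2 groups alone gave 76 for the last. Without a fold threshold, 218 genes were lower and 342 higher between intact and vasectomised, 1195 lower and 1524 higher between intact and control, and 350 lower and 700 higher between vasectomised and control. Controls 1 and 2 alone gave 719 genes lower after intact mating and 277 lower after vasectomised mating than in controls, and controls 3 and 4 alone gave 213 lower and 413 higher after vasectomised mating. The cause of these changes was not tested.

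Leaving out 1 array gave 19 to 69 genes lower and 60 to 140 higher between intact and vasectomised, and 78 to 249 lower between vasectomised and control (249 without control pool 1). List genes outside the members then numbered 6 to 19 called higher between intact and vasectomised, and 1 to 3 lower (2 with all arrays) and 3 to 8 higher (6 with all arrays) between vasectomised and control. The lowest counts for intact against vasectomised came without intact pool 4 (19 genes lower) and without intact pool 2 (60 higher). The STAT motif was in 1 member promoter over 300 bases and in 0 before the start.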
